A study of Mus musculus with 5 samples.

Results

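The members described here were the 400 pairs of 5 kb bins that bridge the domain border inside Lmbr1 on mouse chromosome 5, in capture Hi-C maps of the Sonic hedgehog (Shh) locus in E10.5 limb buds. Each pair joined a left bin, within chr5:29255001-29355000, to a right bin, within chr5:29360001-29460000 (mm10), with the border bin at 29355001 to 29360000 between them. They were 400 of the 155961 bin pairs of each map. The border bin was chosen by the low contact across it in these same maps, so the low level of the members is a description and not a finding.

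The maps came from limb buds of 5 homozygous mutants, 1 library each. Mating gave the intraTAD3, intraTAD2-i4CTCF and intraTAD2 embryos. For intraTAD2-2xBorCTCF and intraTAD2-1xBorCTCF, tetraploid aggregation was used, in which mutant stem cells in culture go on to form the embryo. The names place i4CTCF, 2xBorCTCF and 1xBorCTCF on the intraTAD2 allele, and the 3 are called by these shorter names below. What each allele changes in the DNA is not given in the sources used here. A wild-type limb bud map belonged to none of the series' samples and was taken as the authors' value. Because the series type also names a reanalysis of other work, a difference from wild type cannot be told apart from a difference between experiments.

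Capture Hi-C joins pieces of DNA that lie close together in the nucleus and counts the joined pairs within a chosen region. Chromosomes fold into domains whose borders are often marked by CTCF, a DNA-binding protein that halts the loop-forming cohesin complex, and bins on opposite sides of a border touch less than bins within a domain. Shh encodes the signal that patterns the limb from thumb to little finger, and its limb enhancer, ZRS, lies in an intron of the distant gene Lmbr1. The border inside Lmbr1 lies at the enhancer end of the Shh domain.

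The windows held 4 annotated genes. Lmbr1, which encodes a membrane protein, ran from 29229802 to 29378421 on the minus strand. It covered all 20 left bins and the first 4 right bins, so the border fell within the gene body. Nom1, which encodes a nucleolar protein, lay in the right window at 29434659 to 29452169 on the plus strand and touched 5 bins. The long noncoding RNA genes Gm42244, on the left, and Gm36086, on the right, touched 1 bin each. The promoters of the 2 protein-coding genes are shown because both start sites lay in the right window, across the border from Shh. They are the 250 bases before the start site in RefSeq (GRCm38.p6), Lmbr1 at chr5:29378391-29378640 on the minus strand and Nom1 at chr5:29434417-29434666 on the plus strand. Capitals mark matches to AGNNGGC, loose letters from the centre of the CTCF motif, on either strand.
Lmbr1: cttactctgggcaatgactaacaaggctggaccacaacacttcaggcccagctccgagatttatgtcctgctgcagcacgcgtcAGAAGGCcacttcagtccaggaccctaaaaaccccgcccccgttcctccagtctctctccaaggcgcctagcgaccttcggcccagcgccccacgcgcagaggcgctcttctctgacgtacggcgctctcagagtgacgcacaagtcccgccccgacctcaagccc
Nom1: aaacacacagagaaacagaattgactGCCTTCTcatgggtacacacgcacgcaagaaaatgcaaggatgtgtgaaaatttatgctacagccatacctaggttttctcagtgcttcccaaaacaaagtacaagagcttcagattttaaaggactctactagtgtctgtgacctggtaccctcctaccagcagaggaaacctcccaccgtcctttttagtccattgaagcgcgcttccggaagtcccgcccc
Each window held 1 match, at base 85 of the Lmbr1 window and, on the opposite strand, at base 27 of the Nom1 window, and 17232 of 32851 promoters searched over the same length (52.5%) held these letters. The stricter AGGNGGC, which is contained in the loose form, was in neither window on either strand, and in 8214 promoters (25%). Both forms were chosen after a longer form of the motif had matched in the Nom1 window, on the opposite strand, at the letters in capitals. The Lmbr1 window was 62% G and C and the Nom1 window 47.2%. A match is a description of the letters and not a binding site, and a missing one says only that the letters are not in this window.

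Every map covered 558 bins from 27480001 to 30270000. The whole contacts behind the balanced values came to 2848921 in intraTAD3, 1256568 in i4CTCF, 1121373 in 2xBorCTCF, 1975131 in 1xBorCTCF, 2942790 in intraTAD2 and 1646616 in wild type. A member rested on a median of 6 contacts in 2xBorCTCF, the shallowest map, 20 in intraTAD2, the deepest, and 11 in wild type. The last left bin, 29350001, had no contacts in any map, so 20 members had no value and the closest measured pairs were 15 kb apart. In intraTAD3 the bins at 29305001 and 29310001 were also empty, which left 340 members there and 380 in the other 5 maps. Results are therefore given with all members and with the 320 usable members outside the 3 bins from 29305001 to 29320000. Coverage differed between maps. Over the other 36 bins, the share of a map's contacts held by a bin was 0.778 to 1.07 times its share in intraTAD2 for the intraTAD3 map and 0.505 to 1.61 times for wild type. Balancing divides such differences out, and their part in the results was not tested.

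Values below are distance-normalised contacts: the balanced value of a pair divided by the mean over all pairs equally far apart in the same map, so that 1 is the regional mean. Bridging contact was little more than 0.5 of that mean in every map. Its mean over all members was 0.55 (95% interval 0.534–0.565) in intraTAD3, 0.552 (0.530–0.574) in i4CTCF and 0.523 (0.501–0.545) in 2xBorCTCF. For 1xBorCTCF it was 0.561 (0.545–0.578), for intraTAD2 0.555 (0.542–0.568) and for wild type 0.554 (0.535–0.572). The intervals come from the number of contacts alone and hold no variation between embryos. Few pairs reached the regional mean: between 2 members in intraTAD2 and 18 in i4CTCF lay above 1, and 11 did in wild type. The share of all pairs above 1 was not taken, so these counts are a description. A member held a median of 20 contacts in intraTAD2 and 7 in i4CTCF, and the part of depth in this range was not tested. Without the 3 bins the mean was 0.565 in intraTAD3, 0.559 in i4CTCF, 0.528 in 2xBorCTCF, 0.560 in 1xBorCTCF, 0.555 in intraTAD2 and 0.544 in wild type.

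**Figure D1:**
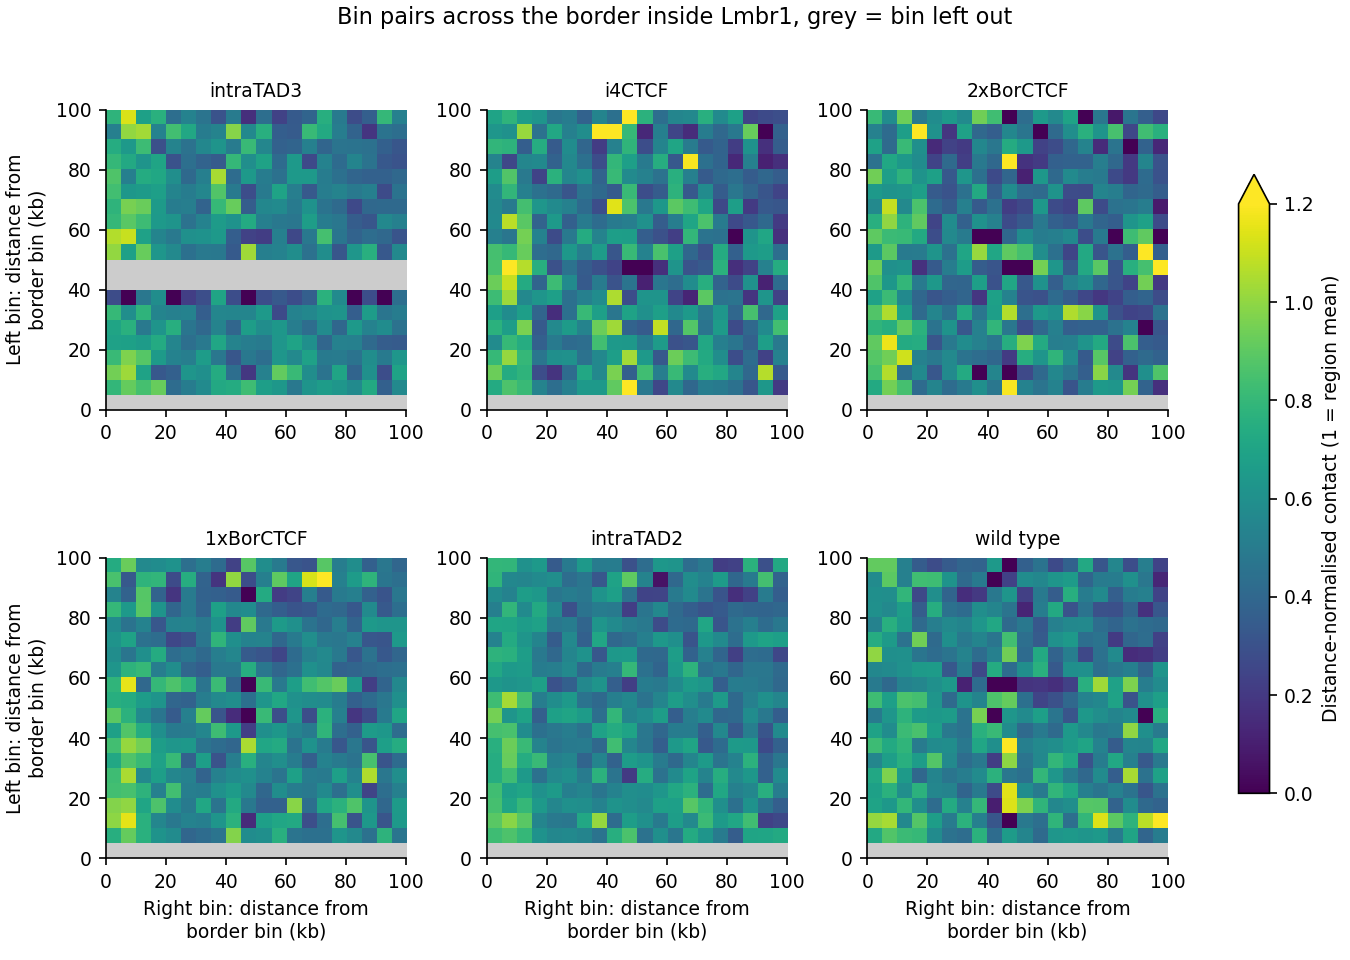
Distance-normalised contact of each of the 400 bin pairs in the 6 maps, with the distance of the right bin from the border bin on the x axis and of the left bin on the y axis, both in kb. Colour runs from 0 to 1.2 and grey bins were left out. In each map the columns nearest the border on the right tend to be brighter, and intraTAD3 has an extra grey band where 2 bins were empty.

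A square of the same shape was moved along the region to place this border among other positions. Of 518 squares, between 4 (in 2xBorCTCF) and 15 (in intraTAD3 and intraTAD2) had a lower mean than the border inside Lmbr1, and 11 did in wild type. The squares were moved 5 kb at a time, so neighbours share most of their pairs and are not separate positions. The 4 lower squares of 2xBorCTCF lay 5 to 20 kb to the right of this border bin. Some of the lower squares of intraTAD3 lay there too. The median square stood between 0.985 and 1.00 in each map. Among squares within 100 kb of the border bin, contact was lowest 10 to 15 kb to its right in the 5 mutant maps, at 0.505 to 0.548. In wild type it was lowest at the border bin itself, at 0.554. At the Shh end of the domain, the border bin at 28445001 gave 0.479 (0.460–0.498) for intraTAD3, 0.483 (0.453–0.512) for i4CTCF and 0.565 (0.511–0.620) for 2xBorCTCF. There 1xBorCTCF had 0.516 (0.491–0.541), intraTAD2 0.454 (0.438–0.470) and wild type 0.479 (0.451–0.508). The Shh end thus had less bridging contact than the Lmbr1 end in 5 maps, with intervals that did not overlap, whereas in 2xBorCTCF the intervals overlapped.

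**Figure D2:**
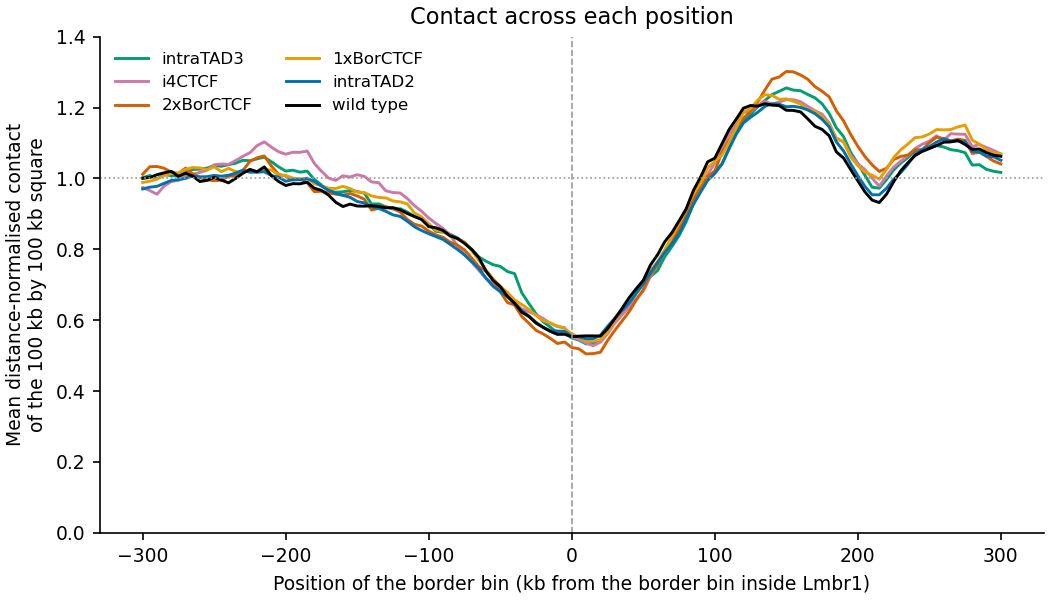
Mean distance-normalised contact of a 100 kb by 100 kb square (y axis) against the position of its border bin in kb from the border bin inside Lmbr1 (x axis), 1 line for each of the 6 maps. All lines have their low point within 15 kb of the border, with 2xBorCTCF lowest at 0.505, and intraTAD3 has a shoulder 40 kb to the left, at 0.731 against 0.648 in wild type.

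How sharply the border cut was measured against pairs that stayed on 1 side of it, at the same distances up to 95 kb. Bridging pairs averaged 0.660 in intraTAD3, against 0.852 within the left window and 0.823 within the right one. In wild type they averaged 0.672, against 0.768 on the left and 0.794 on the right. The log2 ratio of bridging to within-side contact was -0.34 (-0.41 to -0.28) for intraTAD3, -0.22 (-0.31 to -0.13) for i4CTCF and -0.26 (-0.35 to -0.17) for 2xBorCTCF. For 1xBorCTCF it was -0.19 (-0.26 to -0.12), for intraTAD2 -0.19 (-0.25 to -0.13) and for wild type -0.22 (-0.29 to -0.14). The step at the Shh end was steeper in every map, between -0.62 in 2xBorCTCF and -0.88 in i4CTCF, with -0.71 in wild type. The Lmbr1 end was the shallower by 0.35 (0.23–0.46) in intraTAD3, 0.66 (0.49–0.84) in i4CTCF, 0.36 (0.13–0.59) in 2xBorCTCF, 0.43 (0.29–0.57) in 1xBorCTCF, 0.58 (0.47–0.68) in intraTAD2 and 0.49 (0.33–0.65) in wild type. Between maps the step was larger in intraTAD3 than in intraTAD2 by 0.16 on the log2 scale (difference -0.16, -0.24 to -0.07), and by 0.13 without the 3 bins (-0.13, -0.21 to -0.05). Against wild type the difference was -0.13 (-0.23 to -0.03), and -0.07 (-0.17 to 0.03) without the 3 bins. The other 8 differences had intervals that held 0. Contact within the left window was 0.852 in intraTAD3, against 0.746 in intraTAD2 and 0.768 in wild type. Bridging contact over these distances was 0.660 in intraTAD3, against 0.682 in intraTAD2 and 0.672 in wild type, and without the 3 bins 0.683 in intraTAD3, against 0.678 in intraTAD2 and 0.658 in wild type. The larger step in intraTAD3 thus came with more contact within its left window in both sets, and with a lower bridging mean with all members but not without the 3 bins. Both sets keep left-window pairs that span the 3 bins, and the excess lay in these. Spanning pairs averaged 1.01 in intraTAD3, against 0.738 in intraTAD2 and 0.790 in wild type. Pairs not spanning them averaged 0.691, against 0.705 and 0.736. The step with a shorter distance across the 3 bins was not tested.

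Contact across the border declined with distance even though distance had been divided out. Without the 3 bins, pairs 15 to 50 kb apart averaged 0.688 in intraTAD3, 0.642 in i4CTCF, 0.720 in 2xBorCTCF, 0.723 in 1xBorCTCF, 0.695 in intraTAD2 and 0.692 in wild type. Pairs more than 150 and up to 200 kb apart averaged 0.436 in intraTAD3, 0.415 in i4CTCF, 0.417 in 2xBorCTCF, 0.510 in 1xBorCTCF, 0.453 in intraTAD2 and 0.426 in wild type. The far pairs thus lay farther below the regional mean for their own distance than the near pairs did. In 2 of 40 comparisons of a distance class between maps the interval excluded 0, both in the far class and both with 1xBorCTCF. Its 549 far contacts gave 0.510 (0.462–0.557), against 0.426 (0.380–0.471) from 412 contacts in wild type, a log2 ratio of 0.26 (0.06 to 0.47). In 2xBorCTCF the 253 far contacts gave 0.417 (0.359–0.475), a log2 ratio of -0.29 (-0.53 to -0.05) over 1xBorCTCF. No pair of the far class uses the 3 bins. With all members 2 nearer classes also passed, at 10 to 50 kb for intraTAD3 over intraTAD2 (-0.10, -0.20 to -0.0023) and at 55 to 100 kb for 2xBorCTCF over wild type (-0.13, -0.25 to -0.0098). The share of distance classes that pass at other positions was not taken, so these counts and the values of 1xBorCTCF are a description.

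**Figure D3:**
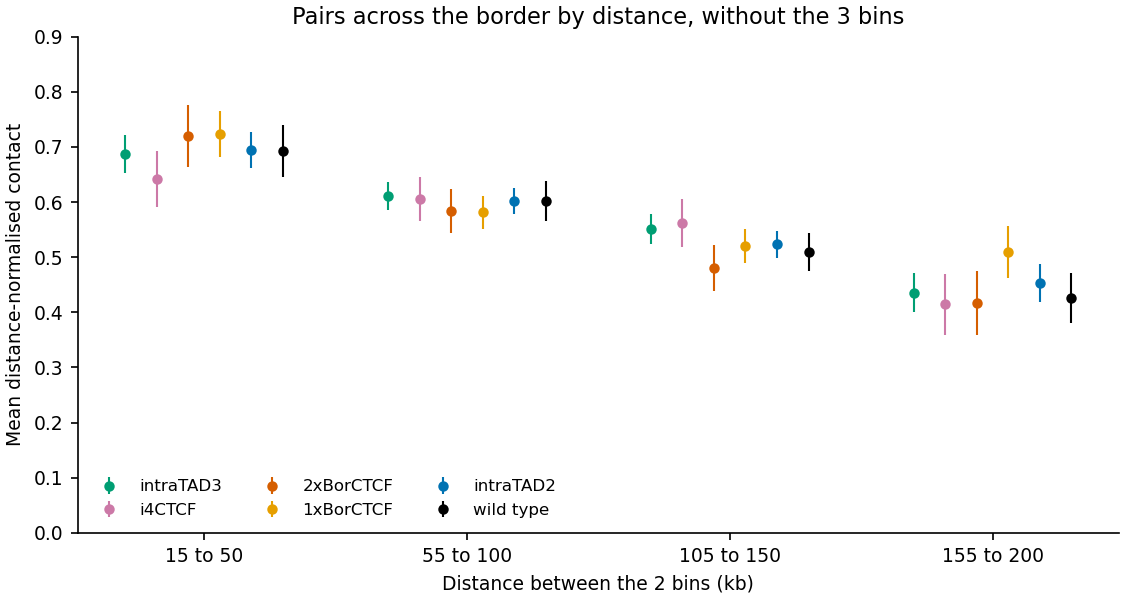
Mean distance-normalised contact of the members (y axis) in 4 classes of distance between the bins in kb (x axis), without the 3 bins, with points for the 6 maps and bars for the 95% counting interval. Every map steps down from 0.642 or more in the nearest class to 0.510 or less in the farthest, where 1xBorCTCF is the highest.

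The comparisons between maps ask whether bridging contact differs between the alleles, each seen in 1 library. Embryos of 2xBorCTCF and 1xBorCTCF came from tetraploid aggregation and those of intraTAD2 from mating. In ratios of these maps over intraTAD2, allele, origin of the embryos and library cannot be told apart. In 7 of the 10 the difference over all members was within counting error. Over wild type the log2 ratio was -0.00025 (-0.07 to 0.07) for intraTAD3, -0.0033 (-0.08 to 0.07) for i4CTCF, 0.02 (-0.04 to 0.085) for 1xBorCTCF and 0.0033 (-0.06 to 0.06) for intraTAD2. Over intraTAD2 it was -0.01 (-0.07 to 0.04) for intraTAD3, -0.0066 (-0.07 to 0.06) for i4CTCF and 0.02 (-0.04 to 0.07) for 1xBorCTCF. The ratio of intraTAD3 depended on the window: within 50 kb of the border it was -0.17 over both intraTAD2 and wild type, beyond counting error, but -0.06 and -0.03 without the 3 bins, with intervals that held 0. Unbalanced contacts without the 3 bins gave 0.053 and 0.11, both beyond counting error. Across the whole region many squares did differ. The share of 518 squares whose interval excluded 0, in either direction, was 49% for intraTAD3, 31.1% for i4CTCF, 41.9% for 2xBorCTCF, 26.4% for 1xBorCTCF and 34% for intraTAD2 over wild type. Over intraTAD2 it was 48.3% for intraTAD3, 38.6% for i4CTCF, 31.5% for 2xBorCTCF and 45.2% for 1xBorCTCF, and for 2xBorCTCF over 1xBorCTCF it was 23.2%.

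The members were lower in 2xBorCTCF than in the 3 maps it was compared with. Its mean was 0.523, against 0.561 in 1xBorCTCF (log2 ratio -0.10, -0.18 to -0.03), 0.555 in intraTAD2 (-0.08, -0.16 to -0.01) and 0.554 in wild type (-0.08, -0.16 to -0.0033). Among the 518 squares, 11% were lower beyond counting error over 1xBorCTCF, 12.5% over intraTAD2 and 17% over wild type, and 22, 28 and 59 squares had a lower ratio than this border had. Without the 3 bins the ratio over 1xBorCTCF was -0.08 (-0.16 to -0.0034). It was then -0.07 (-0.15 to 0.0043) over intraTAD2 and -0.04 (-0.13 to 0.04) over wild type, both with intervals that held 0. Over 1xBorCTCF the interval also held 0 in windows of 50 kb (-0.12) and when unlisted pairs were left out (-0.058). Among the 3 bins, 29315001 had a mean of 0.402 (0.339–0.465) from 233 contacts in 2xBorCTCF, against 0.631 (0.562 to 0.70) in 1xBorCTCF, 0.557 (0.507–0.607) in intraTAD2 and 0.647 (0.580–0.713) in wild type. In 2xBorCTCF 2421 of the 6016 contacts of this bin joined it to itself, against 272 of 6691 in 1xBorCTCF, 186 of 9804 in intraTAD2 and 316 of 8245 in wild type. The part of this self-contact in the lower bridging values was not tested.

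**Figure D4:**
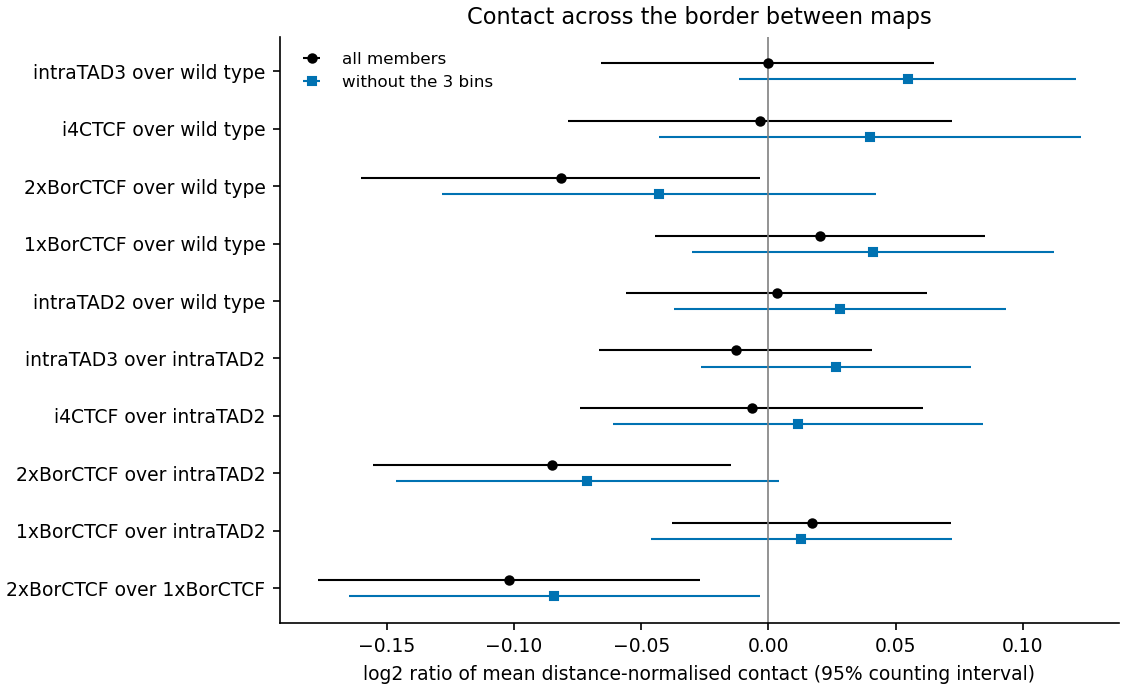
The log2 ratio of mean bridging contact (x axis) for the 10 comparisons of maps (y axis), with all members as black circles and without the 3 bins as blue squares, and bars for the 95% counting interval. With all members the intervals of the 3 ratios of 2xBorCTCF lie left of 0, and without the 3 bins that over 1xBorCTCF alone does so.

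By gene, the right bins that belong to Lmbr1, from 29360001 to 29380000, kept the most contact across the border. Without the 3 bins, their 64 pairs averaged 0.756 (0.722–0.789) in intraTAD3, 0.654 (0.606–0.703) in i4CTCF, 0.745 (0.693–0.797) in 2xBorCTCF, 0.704 (0.667–0.741) in 1xBorCTCF, 0.698 (0.667–0.728) in intraTAD2 and 0.671 (0.631–0.712) in wild type. The 80 pairs of the Nom1 bins, farther out, averaged 0.484 in intraTAD3, 0.472 in i4CTCF, 0.477 in 2xBorCTCF, 0.529 in 1xBorCTCF, 0.511 in intraTAD2 and 0.525 in wild type. So the stretch of Lmbr1 beyond the border had more contact across it than Nom1 had, in each map and without overlap of the intervals. These gene sets were not matched for distance: the Lmbr1 bins lie next to the border bin, and bridging contact declined with distance. The part of position in this contrast was not tested. The Nom1 bins gave intervals that held 0 in all 9 comparisons with wild type or intraTAD2, with log2 ratios between -0.15 (-0.34 to 0.03) for i4CTCF over wild type and 0.05 (-0.08 to 0.18) for 1xBorCTCF over intraTAD2. The bin of Gm36086, just past Lmbr1, lay between 0.448 in 2xBorCTCF and 0.514 in intraTAD2, with 0.505 in wild type. The bin of Gm42244, on the left, lay between 0.453 in 2xBorCTCF and 0.516 in intraTAD3, with 0.450 in wild type.

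Without the 3 bins, the right Lmbr1 bins were higher than in wild type in 2 mutant maps. In intraTAD3 the log2 ratio was 0.17 (0.06 to 0.28) over wild type and 0.11 (0.03 to 0.20) over intraTAD2. In 2xBorCTCF it was 0.15 (0.02 to 0.28) over wild type and 0.09 (-0.02 to 0.21) over intraTAD2. Also without the 3 bins, the mean over all right bins in 2xBorCTCF was within counting error of wild type (-0.04, -0.13 to 0.04). Ratios of the Lmbr1 bins with all members, and the share of such sets that differ at other positions, are not given. In 2xBorCTCF the 3 bins matter: 29305001 to 29330000 against 29360001 to 29385000 had 0.725 without them, against 0.680 in wild type. With all members that block had 0.645, against 0.682 in wild type. The bin with the Lmbr1 start site, 29375001, was lower in i4CTCF, where its 92 contacts gave 0.465 (0.359–0.571), against 0.604 in intraTAD2 and 0.610 in wild type. The log2 ratios were -0.38 (-0.75 to -0.0060) and -0.39 (-0.79 to -0.0012), both with an upper bound close to 0. With all members both intervals held 0, at -0.26 (-0.60 to 0.085) over intraTAD2 and -0.36 (-0.71 to 0.00060) over wild type. The Nom1 start bin, 29430001, had intervals that held 0 in every such comparison.

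Among single bins, 29365001 had the highest mean in all 5 mutant maps, between 0.767 in intraTAD2 and 0.80 in 2xBorCTCF, and stood second in wild type at 0.713. In wild type 29340001, a left bin inside Lmbr1 with 2251 contacts in all, came first at 0.715 (0.611–0.820). Bin 29440001, in the body of Nom1, was the lowest of the 36 in i4CTCF (0.371), 2xBorCTCF (0.378) and intraTAD2 (0.429), and had 0.501 in wild type. None of the 36 bins reached a mean of 1 in any map. Over the 10 comparisons, without the 3 bins, 17 of 360 bin means differed beyond counting error, 6 higher and 11 lower. With all members 23 of 386 did, 6 higher and 17 lower. Among bins at all positions, over the same 10 comparisons together, the share was 10.7%, and among the members it was 4.72% without the 3 bins and 5.96% with them, both below that background. In 2xBorCTCF every bin beyond counting error was lower. Over 1xBorCTCF these were 3 of 36 bins without the 3 bins (8.33%) and 4 of 39 with all members (10.3%), where 3.74% of bins at all positions were lower. Over intraTAD2 they were 2 of 36 (5.56%) and 3 of 39 (7.69%), where 4.56% were lower, and over wild type 3 of 36 (8.33%) and 4 of 39 (10.3%), where 5.09% were lower. The 2xBorCTCF shares were above the share lower at all positions, the direction in which all of these bins lay. In either direction, the share at all positions was 7.49% over 1xBorCTCF, 10% over intraTAD2 and 11.7% over wild type. Against these, the members' shares were higher over 1xBorCTCF and lower over intraTAD2 and wild type. Each rests on 4 bins or fewer.

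In blocks of 25 kb by 25 kb, those against the first right block, 29360001 to 29385000, were high in most maps and the outermost corner was low. The corner, from 29255001 to 29280000 on the left and from 29435001 to 29460000 on the right, had 0.421 in intraTAD3, 0.369 in i4CTCF, 0.390 in 2xBorCTCF, 0.490 in 1xBorCTCF, 0.428 in intraTAD2 and 0.396 in wild type. Of 160 block comparisons, 17 lay beyond counting error without the 3 bins, 9 higher and 8 lower. Over wild type these were 3 of 16 for intraTAD3 (16.3% among all blocks of the region at the same distances), 3 for i4CTCF (12.6%) and 1 each for 2xBorCTCF (14.7%), 1xBorCTCF (12.1%) and intraTAD2 (11.9%). Over intraTAD2 they were 1 for intraTAD3 (13.9%), 2 for i4CTCF (14%), 1 for 2xBorCTCF (11.7%) and 2 for 1xBorCTCF (13.5%), and for 2xBorCTCF over 1xBorCTCF they were 2 (9.33%). These counts are near the background. With all members intraTAD3 over wild type had 6, of which 4 were lower.

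The largest rise was in i4CTCF. Its block from 29255001 to 29280000 against 29385001 to 29410000 had 0.657 from 164 contacts, against 0.502 in intraTAD2 and 0.428 in wild type, with log2 ratios of 0.39 (0.05 to 0.73) and 0.62 (0.23 to 1.01). The same block was also higher in intraTAD3, at 0.552 against 0.428 in wild type (0.37, 0.04 to 0.69). Without the 3 bins the largest fall was in 2xBorCTCF, between 29305001 to 29330000 and the block of Nom1, 29435001 to 29460000. Its 45 contacts gave 0.354, against 0.586 in 1xBorCTCF, 0.551 in intraTAD2 and 0.569 in wild type, with log2 ratios of -0.73 (-1.25 to -0.20), -0.64 (-1.14 to -0.14) and -0.68 (-1.21 to -0.15). That block keeps 10 of its 25 pairs without the 3 bins, and with all 25 its ratio was -0.21, -0.13 and -0.30 over these maps, each with an interval that held 0. With all members the largest fall was instead in intraTAD3, between 29305001 to 29330000 and 29385001 to 29410000, where 207 contacts in 15 pairs gave 0.434, against 0.621 in wild type (-0.52, -0.93 to -0.10). Without the 3 bins that ratio was -0.13 (-0.57 to 0.30).

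**Figure D5:**
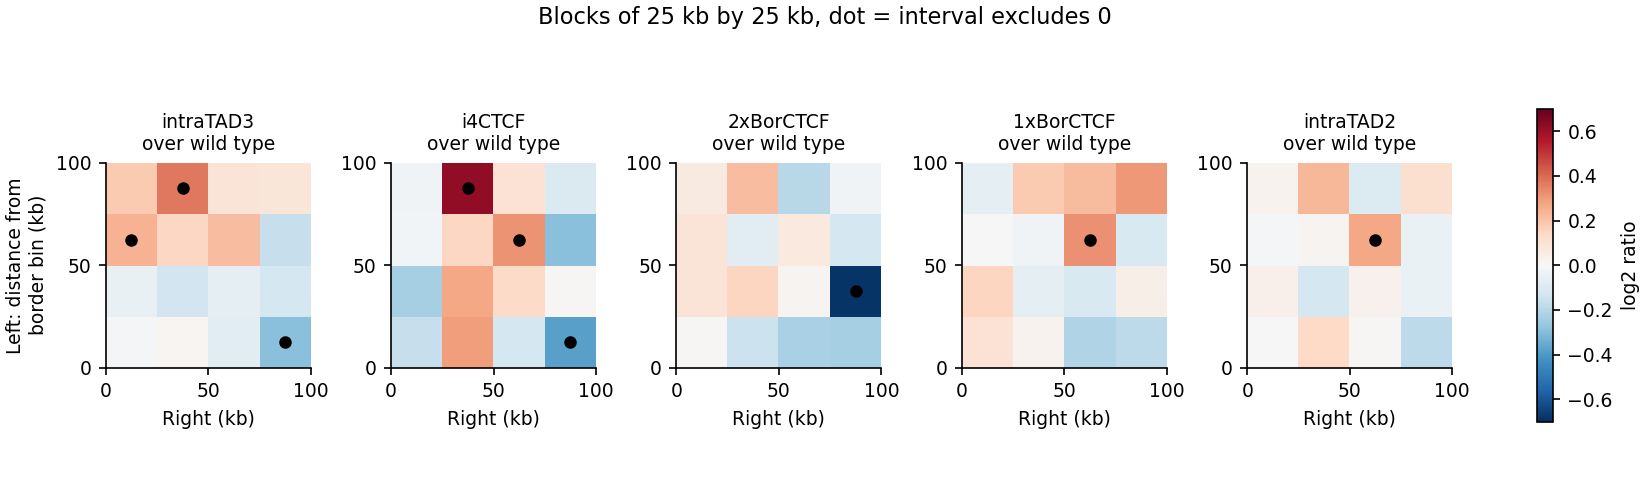
The log2 ratio of each mutant map over wild type in blocks of 25 kb by 25 kb, without the 3 bins, with the distance of the right and of the left bins from the border bin on the x and y axes in kb. A black dot marks a block whose 95% counting interval excludes 0. Of the 16 blocks, 3 are dotted in intraTAD3 and in i4CTCF and 1 in each other map, and the deepest blue block is that of 2xBorCTCF at -0.68.

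In intraTAD3 the members divided at the 3 sparse bins, a split chosen after the values had been seen. Left bins on the far side of the stretch had more bridging contact: their 200 pairs averaged 0.554, against 0.518 in intraTAD2 and 0.498 in wild type, with log2 ratios of 0.10 (0.02 to 0.17) and 0.15 (0.06 to 0.25). Left bins between the stretch and the border did not: their 120 pairs averaged 0.583, against 0.615 in intraTAD2 and 0.620 in wild type, with log2 ratios of -0.08 (-0.15 to -0.0023) and -0.09 (-0.18 to 0.0042). The divide was larger among pairs inside the left window, which do not cross the border. The 60 that spanned the stretch averaged 1.01, against 0.738 in intraTAD2 and 0.790 in wild type, with log2 ratios of 0.46 (0.38 to 0.53) and 0.36 (0.26 to 0.46). The 34 that did not span it averaged 0.691, against 0.705 in intraTAD2 and 0.736 in wild type, and both intervals held 0.

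Distances here follow the reference genome, in which the 3 bins take up 15 kb. In intraTAD3 bin 29315001 kept 739 contacts, against 9804 in intraTAD2 and 8245 in wild type, and whether this DNA is present in the allele is not given in the sources used here. When pairs across the stretch were set against the expected value 15 kb nearer in intraTAD3 alone, the far left bins came to 0.488, with log2 ratios of -0.09 (-0.16 to -0.01) over intraTAD2 and -0.03 (-0.12 to 0.06) over wild type. Pairs inside the left window that spanned the stretch then came to 0.679, with ratios of -0.12 (-0.20 to -0.04) over intraTAD2 and -0.22 (-0.32 to -0.12) over wild type. The higher contact of the right Lmbr1 bins in intraTAD3 changed in the same way. With far left bins it was 0.763, against 0.663 in intraTAD2 and 0.634 in wild type, and with the nearer distance it was 0.638, with intervals that held 0 over both maps. On the shorter distance the excess contact of intraTAD3 across the stretch was not seen. Pairs inside the left window that spanned it were then lower than in both maps. Expected contact is higher at nearer distances, so this setting could only lower the values of intraTAD3. Whether DNA is missing from the allele was not tested. In the other 4 mutant maps the far left bins differed from wild type by log2 ratios of 0.0092 to 0.10, all within counting error.

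Single bin pairs carried few contacts. Among members with at least 10 contacts over both maps, those that differed 2-fold or more over wild type were 44 of 323 for intraTAD3 (13.6%, against 5.94% of all pairs 10 to 200 kb apart), 52 of 311 for i4CTCF (16.7%, against 8.42%) and 36 of 290 for 2xBorCTCF (12.4%, against 8.54%). For 1xBorCTCF they were 38 of 339 (11.2%, against 6.71%) and for intraTAD2 39 of 365 (10.7%, against 5.58%). Over intraTAD2 they were 27 of 332 for intraTAD3 (8.13%, against 3.01%), 57 of 353 for i4CTCF (16.1%, against 7.12%), 60 of 354 for 2xBorCTCF (16.9%, against 8.31%) and 33 of 365 for 1xBorCTCF (9.04%, against 4.63%). For 2xBorCTCF over 1xBorCTCF they were 48 of 318 (15.1%, against 8.03%). The members' shares were higher throughout, and their contacts fewer: a member held a median of 18 contacts in intraTAD3, against 29 for all pairs at the same distances, and 11 against 17 in wild type. The part of depth in these shares was not tested. Without the 3 bins the members' shares were also higher throughout. They lay between 5.43% for intraTAD3 over intraTAD2 and 16.4% for 2xBorCTCF over intraTAD2. Of the 60 in 2xBorCTCF over intraTAD2, 13 were higher and 47 lower, where 2.45% of all pairs were higher and 5.86% lower. With all members, more were lower than higher over intraTAD2, the deepest map, in the other mutant maps too. These were 19 higher and 38 lower for i4CTCF, where 2.31% of all pairs were higher and 4.81% lower. For intraTAD3 they were 9 and 18, where 1.27% of all pairs were higher and 1.74% lower. For 1xBorCTCF they were 15 and 18, where 1.79% were higher and 2.84% lower. Among all pairs, too, more were thus lower than higher in each of these maps. Without the 3 bins they were 10 higher and 39 lower for 2xBorCTCF and 13 and 29 for i4CTCF. For intraTAD3 they were then 8 and 9, and for 1xBorCTCF 12 and 11.

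Examples from the pairs with the largest changes show how few contacts stood behind them. In 1xBorCTCF the pair of 29260001 with 29430001, the bin of the Nom1 start site, had 1.59 from 16 contacts, against 0.532 from 9 in intraTAD2 and 0.392 from 6 in wild type. The log2 ratios were 1.58 (0.40 to 2.76) and 2.02 (0.66 to 3.37). In i4CTCF the pair of 29270001, the Gm42244 bin, with 29425001 had 1.19 from 17 contacts, against 0.358 from 15 in intraTAD2 (1.73, 0.73 to 2.73) and 0.307 from 4 in wild type (1.95, 0.38 to 3.52). In intraTAD3 the pair of 29270001 with 29410001 had 0.693 from 31 contacts, against 0.123 from 2 in wild type, a log2 ratio of 2.49 (0.43 to 4.56). Pairs with 0 contacts in either map were left out of the ranking. Members with 0 contacts numbered between 0 in intraTAD2 and 13 in 2xBorCTCF. Among the ranked pairs, with at least 20 contacts over both maps, the largest rise was in intraTAD2. There the pair of 29335001 with 29400001 had 0.617 from 19 contacts, against 0.0996 from 1 in wild type, but its interval held 0 (2.63, -0.27 to 5.53). The largest fall among the ranked pairs was in i4CTCF, for the pair of 29315001 with 29425001. It had 0.123 from 2 contacts, against 0.699 from 30 in intraTAD2 and 0.654 from 19 in wild type. The log2 ratios were -2.51 (-4.58 to -0.45) and -2.42 (-4.52 to -0.31). This pair uses 1 of the 3 bins. In 2xBorCTCF the pair of 29345001 with 29455001 had 0.167 from 3 contacts, against 0.727 from 28 in intraTAD2, a log2 ratio of -2.13 (-3.84 to -0.41). Each of these pairs moved by several fold with an interval wider than the change itself. Across the 320 members usable in all maps, Spearman's rank correlation of their contact between 2 maps was 0.185 to 0.404, where 19667 pairs 10 to 200 kb apart gave 0.394 to 0.632. These points share bins and library depth, so the correlations describe the maps only.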

How the data were processed

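Capture Hi-C maps were analysed, 6 in all: 5 of mutant limb buds and 1 wild-type map whose column belongs to no sample of the series (1 such column). Each holds a signal per pair of 5 kb bins, balanced by the authors with the Knight-Ruiz method from reads of mapping quality 30 or more, per the file names as deposited. Bowtie2 2.2.6, mm9 and mm10 appear, each with no role, per the submitters' processing notes, and duplicate removal is not given in the sources used here. Positions were read as mm10 because Shh to Lmbr1 contact in wild type was 5.66 at the RefSeq GRCm38.p6 positions and at most 2.60 with them moved by over 50 kb.

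Because balancing multiplies whole contacts by 1 factor per bin, contacts and factors were recovered from each map; 100% of recovered values were whole within 0.01, and 6 pairs in intraTAD3 were not recovered. A bin was left out when it had fewer partners than 25% of the median, and unlisted pairs of usable bins counted as 0. Intervals are 95% Poisson intervals of the recovered contacts with the factors held fixed; reads copied by PCR are not independent molecules, so they cover counting error only, and with 1 library per genotype no p-value was possible. A ratio was called higher or lower when its interval excluded 0. The method was tested on simulated maps. Names went to every gene overlapping a window, the 3 highest and lowest bins of each map, the highest and lowest block of each comparison and, among pairs with at least 20 contacts, the 3 largest rises and falls. Pairs with 0 contacts in either map were left out of these rises and falls. The members, gene list and comparisons were chosen with earlier results of these data known. Software was Python 3.11.15, numpy 2.4.6, scipy 1.17.1, pandas 2.3.3 and matplotlib 3.10.9. Alternatives covered the members, the expected value, balancing, window size, border bin and filters.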

Additional observations from a re-analysis of the deposited data

How the results depend on the processing

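No replicate was left out. No paired analysis was possible because each genotype has 1 library. Depth limits what can be seen: single pairs hold a median of 6 to 20 contacts, and the wild-type map cannot be told apart from a separate experiment.

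Of 152 alternative values of the bridging ratio, 120 kept both direction and call. The lower contact of 2xBorCTCF was the least stable result. Over wild type its log2 ratio fell within counting error without the 3 bins (-0.043), as a sum over a sum (-0.055), with windows of 50 kb (-0.12), with the border bin 5 kb to the left (-0.058), with unlisted pairs left out (-0.056) and with a floor of 50% of partners (-0.073). It changed sign, within counting error, in unbalanced contacts without the 3 bins (0.024) and in windows of 50 kb without them (0.0017), alternatives added after the values were seen. Over intraTAD2 it fell within counting error without the 3 bins (-0.071), with a median expected value (-0.065), in unbalanced contacts (-0.034, and -0.029 without the 3 bins), in windows of 50 kb (-0.12, and -0.030 without the 3 bins) and 150 kb (-0.027), and with unlisted pairs left out (-0.042). Over 1xBorCTCF it did so in windows of 50 kb (-0.12, and -0.063 without the 3 bins) and with unlisted pairs left out (-0.058).

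Ratios that passed only under an alternative were, over wild type, intraTAD3 in windows of 50 kb (-0.17), of 150 kb (-0.0495) and in unbalanced contacts without the 3 bins (0.11), i4CTCF scaled by the map total (-0.10) and in windows of 150 kb (-0.066), 1xBorCTCF unbalanced without the 3 bins (0.15) and intraTAD2 unbalanced (-0.059). Over intraTAD2 they were intraTAD3 in windows of 50 kb (-0.17), unbalanced without the 3 bins (0.053) and with pairs across those bins set 15 kb nearer (-0.083), i4CTCF scaled by the map total (-0.087) and 1xBorCTCF unbalanced (0.10, with or without the 3 bins).

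The bridging level stayed under the regional mean under all 4 alternatives, between 0.528 and 0.557 in 2xBorCTCF and between 0.544 and 0.603 in the other maps. The 12 alternative values of bridging over within-side contact kept their sign and call. Because the border bin was chosen by low contact across it in these same maps, this stability is a description and lends no support.

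Counts of members changed 2-fold moved with the filters in 30 of 50 alternatives. In the order intraTAD3, i4CTCF, 2xBorCTCF, 1xBorCTCF and intraTAD2 over wild type, 1.5-fold gave 108, 109, 118, 97 and 107 members, at least 20 contacts gave 25, 19, 10, 13 and 21, and unbalanced contacts gave 89, 85, 65, 78 and 78. Over intraTAD2, 1.5-fold gave 88 for intraTAD3, 121 for i4CTCF, 131 for 2xBorCTCF and 103 for 1xBorCTCF, and at least 20 contacts gave 30 for i4CTCF, 34 for 2xBorCTCF and 17 for 1xBorCTCF. For intraTAD3 over intraTAD2 there were 17 without the 3 bins and 41 in unbalanced contacts. For 2xBorCTCF over 1xBorCTCF, 1.5-fold gave 118, at least 20 contacts 19 and at least 1 contact 78, and at least 1 contact gave 81 for i4CTCF, 81 for 2xBorCTCF and 58 for 1xBorCTCF over wild type. The cause of these changes was not tested.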
